A study of Mus musculus with 23 samples.

Results

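Heterotrimeric G proteins and the RGS proteins that switch them off were followed as 46 genes, picked by symbol from the deposited count table, which holds 23453 genes beside single features of the engineered loci. The genes are 13 alpha subunits, 5 beta subunits, 11 gamma subunits and 17 RGS proteins. The libraries came from mouse hearts at embryonic day 13.5, all with the strain label C57BL/6, in 3 genotype groups. The 8 wild-type hearts had unmodified GRK2, GRK5 and GRK6 and no Cre. The 8 GRK-haploinsufficient hearts were GRK2 fl/wt, GRK5 fl/fl and GRK6 KO/KO and carried Nkx2.5Cre. The 7 GRK-triple-knockout hearts were GRK2 fl/fl, GRK5 fl/fl and GRK6 KO/KO with the same Cre. Both GRK groups therefore share Cre, the deleted Grk6 and floxed Grk5, and differ by label in the second Grk2 allele. Floxed alleles are recombined only in cells that have expressed the Cre, which the Nkx2-5 locus drives in the cardiac lineage, whereas the Grk6 knockout is in every cell. Since no label states that replicates came from different embryos, a p-value here speaks for the scatter among these libraries alone, and that scatter may be technical.

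An activated receptor loads the alpha subunit with GTP, and the alpha subunit and the beta-gamma pair then separate and act on their own effectors. RGS proteins speed up GTP hydrolysis by alpha subunits, mostly those of the Gi and Gq classes, and so end the signal. G protein receptor kinases (GRKs) phosphorylate the same active receptors. Their N-terminal part is an RGS homology domain, and GRK2 is recruited to the membrane by beta-gamma. The comparisons below ask how the RNA of this machinery stood in hearts that lacked the kinases in part or in whole.

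Wild-type libraries held 3838166 to 14050559 counts, haploinsufficient libraries 1757257 to 11025358 and triple-knockout libraries 6657734 to 13864731. A gene without a read could be present at up to 0.201 CPM (counts scaled to the size of the library) in the deepest library and 1.75 CPM in the shallowest, the level of 3 counts; this limit covers counting error only. Cre and Grk6, which the labels set apart from wild type in both GRK groups, did so in every library. Cre lay at 0 to 0.857 CPM in wild type against 9.91 to 24.2 and 8.23 to 24.9 CPM in the haploinsufficient and triple-knockout groups, and Grk6 exons 3 to 9 at 10.9 to 17.7 CPM against at most 0.746 and 0.217 CPM. Adrbk1, the symbol of Grk2 and the gene in which the GRK groups differ by label, ran over the whole gene from 48.8 to 60.1 CPM (median 54.4) in wild type, 21.9 to 57.7 CPM (median 46.5) in the haploinsufficient group and 26.3 to 43.2 CPM (median 33.9) in the triple knockouts. In this whole-gene sum the GRK groups overlapped, and the lowest haploinsufficient library lay below every triple knockout. The sum covers all features of Adrbk1, unlike exons 3 to 9 of Grk6, and does not single out floxed exons. Grk5 had medians of 24, 14.1 and 13.2 CPM, and Nkx2-5 of 99.1, 70.9 and 56.3 CPM in the same order of groups. The 10 cardiomyocyte markers, among them Tnnt2 and Myh6, summed to 42000 to 94100 CPM over the libraries, and none of them was at 0.

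Some measures differed between libraries beside the genotype. The neighbouring tissue score, a mean over markers of lung, foregut, liver and thymus of their log2 difference from the wild-type mean, ran from -1.01 to 1.97 in wild type, from -0.78 to 3.10 in the haploinsufficient group, and among the triple knockouts from -0.25 to 2.63; 7 of the 23 libraries lay above 1.5. Genes with under 1000 exonic bases, set against those with at least 4000, were shifted by 0.01 ± 0.17 (SD, n = 8) on the log2 scale in wild type, 0.22 ± 0.30 (SD, n = 8) in the haploinsufficient group and -0.17 ± 0.24 (SD, n = 7) in the triple knockouts. The largest upward shifts of short genes were in haploinsufficient replicates 2 and 4, at 0.40 and 0.76, and the largest downward shift was in triple-knockout replicate 2, at -0.46. By edgeR, 3 of 8 endothelial markers (Cdh5, Tek and Npr3) fell in the haploinsufficient group and 1 of 8 (Npr3) in the triple knockouts. A positive log2 value was held by 0 of 8 in the haploinsufficient group (median -0.296) and 3 of 8 in the triple knockouts (median -0.088). Between the GRK groups it was 8 of 8 (median 0.144). DESeq2 also called Tek in the triple knockouts, and Cdh5 and Kdr between the GRK groups. Of 7 tested skeletal muscle markers 2, Tnnt3 and Tnni2, rose in both GRK groups. The 7 did not move together: 3 had a positive log2 value in the haploinsufficient group (median -0.061) and 4 in the triple knockouts (median 0.457). Actn3 had edgeR log2 values of -0.686 and -0.470, and DESeq2 and limma called it in the haploinsufficient group. Gap43 (neurons) and Mrc1 (macrophages) rose in the triple knockouts. Itga2b (megakaryocytes), Lyz2 (myeloid cells) and Tagln (smooth muscle) fell there, and Cldn6 and Foxf1 (foregut and lung) rose in the haploinsufficient group. Lyz2 and Tagln do not stand for their lists. Of 10 leukocyte markers 8 had a positive log2 value in the triple knockouts against wild type (median 0.367). Of 10 pericyte and smooth muscle markers 5 were positive there (median -0.008), with Myh11 at 2.157 (edgeR adjusted p = 0.247). All 8 tested neuron and glia markers had a positive log2 value in the triple knockouts against wild type, with a median of 1.035 and 6 of 8 at an unadjusted p under 0.05, and their summed level ran from 33.7 to 51.2 CPM (median 40.1) in wild type, 36.7 to 67 CPM (median 46.9) in the haploinsufficient group and 44.7 to 164 CPM (median 66.6) in the triple knockouts. EdgeR called none of the tested cardiomyocyte, epicardial and fibroblast or erythroid markers in any comparison; DESeq2 and limma called Postn, a fibroblast marker, in the haploinsufficient group against wild type (edgeR log2 -0.37). Hba-a1 was at 0 in every library. In whole hearts, fewer cells of a type and less RNA per cell cannot be told apart. The part of these measures in the results on G protein and RGS genes was not tested beyond the values given beside each result.

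The members with the smallest p-values in the haploinsufficient comparison, Gng2, Gng10 and Rgs3, are shown first by the 250 bases before a RefSeq start (GRCm38.p6, the same assembly as mm10). The Gng10 window is chr4:59034906-59035155 on the plus strand and the Rgs3 window chr4:62559597-62559846 on the plus strand, each directly before the first exon of the deposited gene model. The Gng2 window, chr14:19976694-19976943 on the minus strand, belongs to a start 556 bases downstream of the first base of the deposited model and lies in its first intron. Capitals mark a GC box (GGGCGG) in Gng10 and a TATA box (TATAAA) in Rgs3; the Gng2 window held no letters of the motifs searched.
Gng2: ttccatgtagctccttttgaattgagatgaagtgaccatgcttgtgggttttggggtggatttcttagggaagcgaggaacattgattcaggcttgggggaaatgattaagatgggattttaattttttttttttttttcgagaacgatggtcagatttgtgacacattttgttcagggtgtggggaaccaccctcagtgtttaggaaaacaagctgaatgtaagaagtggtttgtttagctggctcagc
Gng10: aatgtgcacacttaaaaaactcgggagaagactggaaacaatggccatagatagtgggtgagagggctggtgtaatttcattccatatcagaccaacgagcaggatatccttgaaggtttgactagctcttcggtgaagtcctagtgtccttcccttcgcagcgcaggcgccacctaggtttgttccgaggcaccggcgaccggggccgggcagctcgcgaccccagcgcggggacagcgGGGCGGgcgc
Rgs3: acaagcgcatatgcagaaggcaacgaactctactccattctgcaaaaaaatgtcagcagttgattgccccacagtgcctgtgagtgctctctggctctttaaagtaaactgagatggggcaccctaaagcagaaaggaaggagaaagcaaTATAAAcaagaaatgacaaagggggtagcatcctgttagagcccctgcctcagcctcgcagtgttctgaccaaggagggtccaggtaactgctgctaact

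These windows had a GC content of 41.2% for Gng2, 58% for Gng10 and 48.4% for Rgs3, against a median of 52.4% over 32851 RefSeq windows. RefSeq gave 45 windows for 34 of the 46 members, some of them overlapping starts of 1 gene. The GC content of the members' windows ran from 41.2% (Gng2) to 82.4% (Gng5), and most of them lay above the median of all windows. Motifs were searched on both strands, and the shares that follow were not matched for GC content. The GC box stood in 55.6% of the members' windows and in 32.7% of all windows, and the CCAAT box (CCAAT) in 22.2% and 33.8%. The TATA box stood in 17.8% against 12.4%. The cAMP response element (TGACGTCA) was in none of the members' windows and in 1.55% of all, and its part TGACG, which every full element holds as well, in 20% and 17.8%. Among the members with TGACG were Gnas, Gnb1, Rgs2 and Rgs4. A match describes letters in a window, not a used site.

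In the wild-type heart each subunit family was led by 1 gene. Levels between genes are compared here as FPKM, the authors' deposited values, which are scaled to transcript length and library size. Gnas, which encodes the stimulatory alpha subunit that activates adenylyl cyclase, stood at 581 ± 46.3 FPKM (SD, n = 8), the highest of all members. Gnai2, an inhibitory alpha subunit, followed at 168 ± 19.4 FPKM. Next came Gna12, in a class with Gna13, at 41.6 FPKM. Gna11, of the Gq class that activates phospholipase C-beta, stood at 36.0 FPKM, and its range overlapped that of Gna12. Gnai3 (10.9 FPKM), Gna13 (9.05), Gnaq (7.54), Gnao1 (6.88) and Gnai1 (5.46) formed a middle group in which each range overlapped that of its neighbour. Gnaz, Gna15 of blood cells and Gnal, the olfactory relative of Gnas, had mean levels of 1.31, 1.25 and 0.852 FPKM, and Gna14, of the Gq class, was lowest at 0.346 FPKM.

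Gnas made up 66.7% ± 1.69 (SD, n = 8) of the summed alpha-subunit FPKM in wild type, 66.7% ± 3.46 (n = 8) in the haploinsufficient group and 69.8% ± 1.97 (n = 7) in the triple knockouts. Gnai2 made up 19.3%, 19.1% and 16.8% in the same order. These shares overlapped between the groups, and no test was made of them. The Gnas row of the count table pools 9 transcripts of an imprinted locus, and 1.83% of its exonic bases overlap Nespas on the other strand, which libraries without strand cannot separate.

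Beta subunits other than Gnb5 pair with gamma subunits for life. In this family Gnb2 led with 152 ± 21.1 FPKM (SD, n = 8), ahead of Gnb1 at 63.3 ± 18.8, Gnb5 at 20.1 ± 1.82, Gnb4 at 11.7 ± 0.826 and Gnb3, best known from cones, at 3.92 ± 0.821 FPKM. No neighbouring ranges overlapped in this order. Gnb1 varied most within the wild-type group, from 28.1 FPKM in replicate 3 to 86.6 FPKM, whereas Gnb5, the partner of the R7 class of RGS proteins, ran only from 16.7 to 22.8 FPKM.

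Gng5 led the gamma subunits with 191 ± 23.7 FPKM (SD, n = 8) in wild type, which was 71% ± 2.58 of the family's sum, and 70.3% ± 4.06 and 66.4% ± 3.93 in the haploinsufficient and triple-knockout groups. The shares overlapped, at 66.8% to 75.8%, 62% to 74.4% and 59.2% to 70.3% in this order of groups, and no test was made of them. Gng5 has 535 exonic bases, and the part of the short-gene shift in its share was not tested. Gng11 (27.1 FPKM), Gngt2 (18.8), Gng10 (9.85), Gng2 (8.91) and Gng12 (7.78) followed with overlapping neighbours. Gngt2, the cone gamma subunit, shares 18.8% of its exonic bases with Abi3 on the other strand. Gng8, Gng13, Gng3, Gng7 and Gng4, known from sensory and nerve cells, stood at 1.87, 1.58, 0.99, 0.521 and 0.163 FPKM.

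The RGS family was less dominated by a single gene. Rgs3, of the R4 class of small RGS proteins that act on Gi and Gq, stood at 37.2 ± 2.43 FPKM (SD, n = 8) and made up 31.2% ± 1.99 of the family's sum. Rgs12, a large protein with further interaction domains, followed at 26 ± 1.92 FPKM. Rgs19 (13.2), Rgs10 (11.7), Rgs6 (10.5) and Rgs5 (7.31 FPKM) overlapped from neighbour to neighbour, as did Rgs16 (4.03), Rgs11 (3.41), Rgs2 (2.33) and Rgs4 (1.73 FPKM). Rgs6 was the highest of the R7 class, which works as a complex with Gnb5 and in the adult heart limits the vagal Gi signal. Rgs20, Rgs9, Rgs18, Rgs17, Rgs14, Rgs7 and Rgs1 were all under 1 FPKM on average. The plot of levels by family shows all 3 groups in the wild-type order; among the low members the order of the means differed in the GRK groups, as for Rgs2, which stood above Rgs11 in both.

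**Figure D1:**
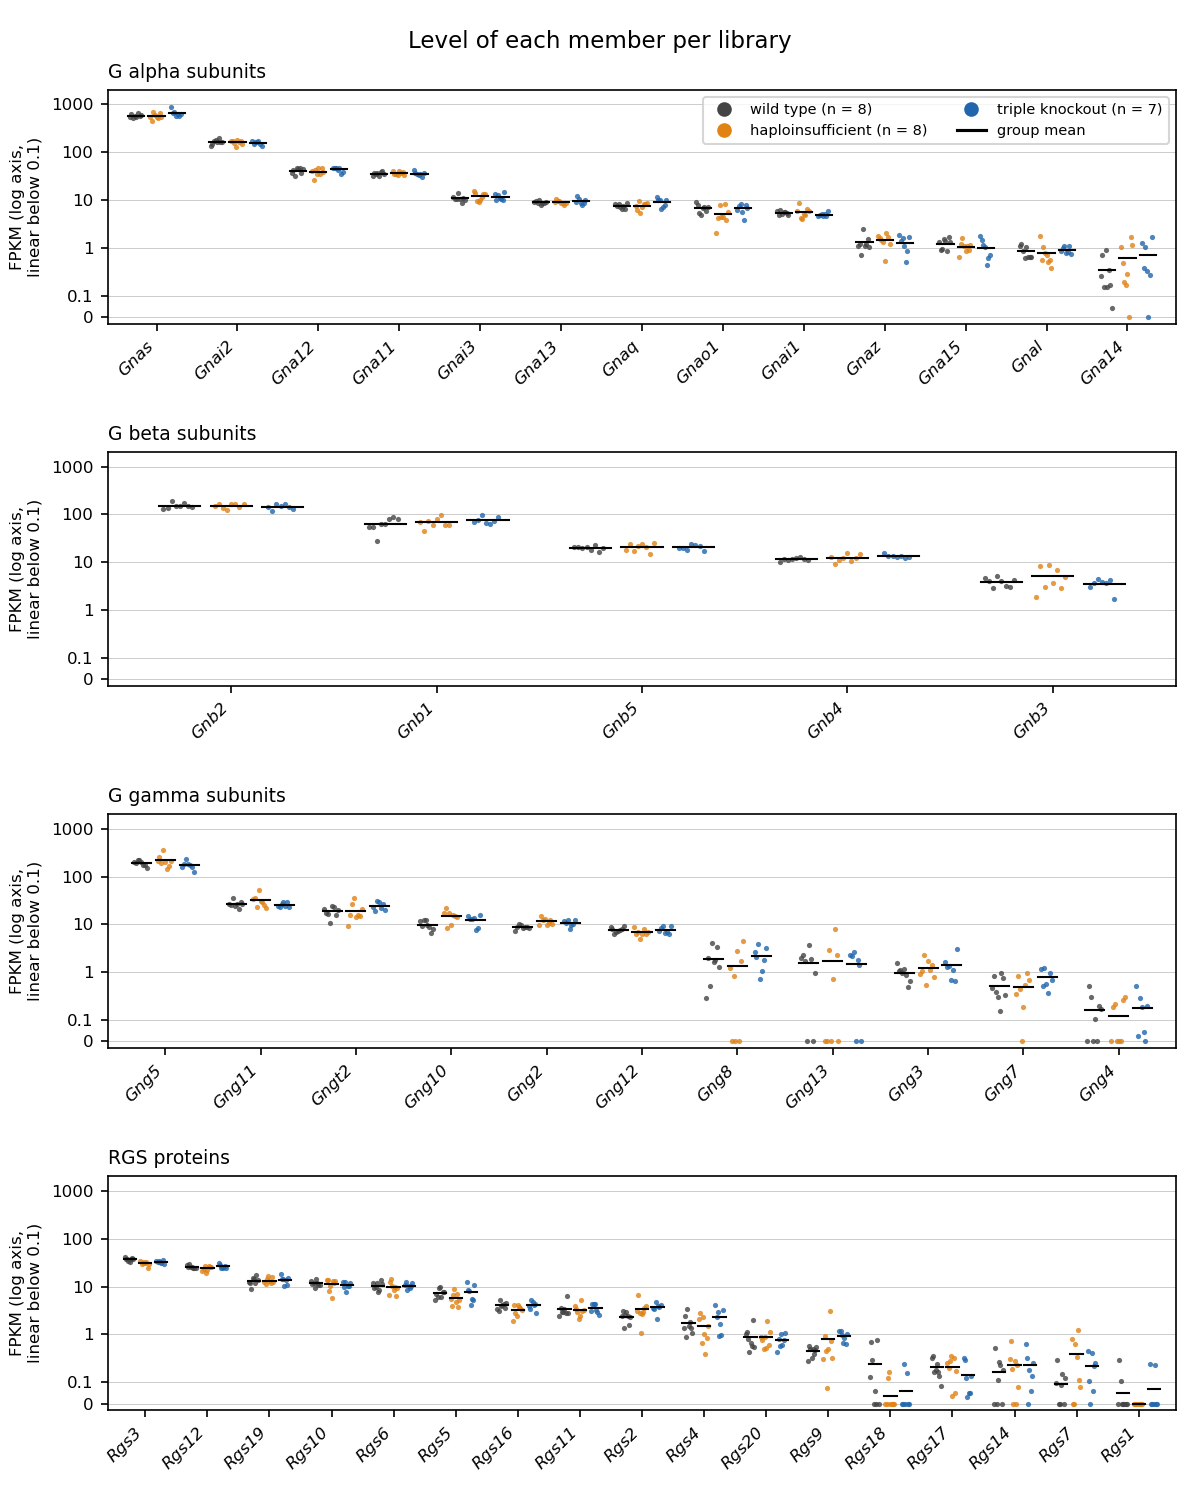
FPKM of the 46 members in each library, by family and in order of the wild-type mean, on a log axis that is linear below 0.1. Points are libraries of the wild-type (n = 8), haploinsufficient (n = 8) and triple-knockout (n = 7) groups and black lines are group means; Gnas, Gnb2, Gng5 and Rgs3 lead their families in each group.

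**Figure D2:**
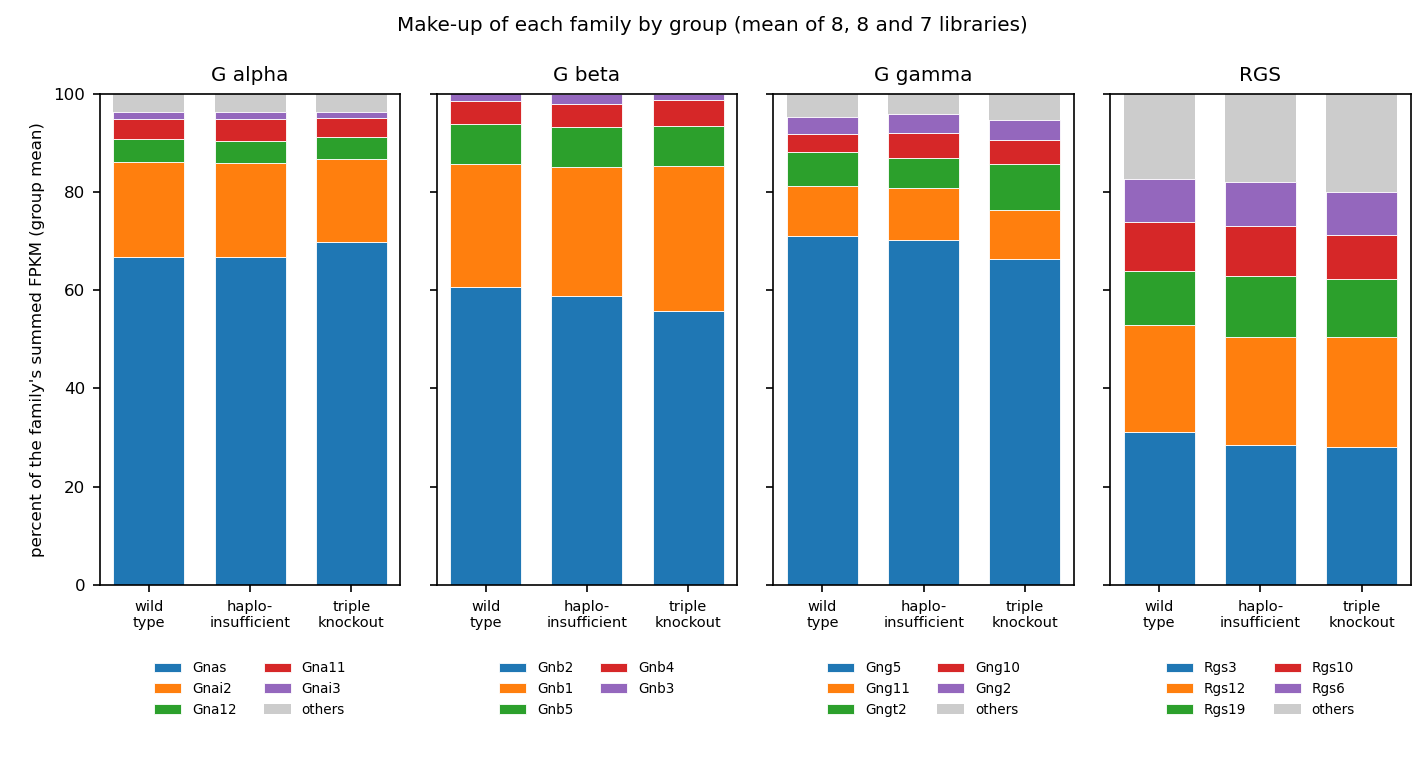
Mean percent of each family's summed FPKM per genotype group (8, 8 and 7 libraries), for the 5 members highest in wild type and the rest. Gnas holds 66.7% of the alpha sum in wild type and 69.8% in the triple knockouts, and Gng5 71% and 66.4% of the gamma sum. Both shares overlap between the groups and were not tested.

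A total of 39 members passed the filter on low counts and were tested. Gng4, Gng13, Rgs1, Rgs7, Rgs14, Rgs18 and Rgs20 were not. Of these, Rgs1, known from lymphocytes, had no count in 6 of 8 wild-type, all 8 haploinsufficient and 5 of 7 triple-knockout libraries. Rgs18, known from platelets and their precursors, had none in 3 of 8, 6 of 8 and 5 of 7 libraries. The summed megakaryocyte and platelet markers had medians of 35.5, 30.7 and 22.9 CPM in these groups. Their part in the Rgs18 values was not tested.

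In the haploinsufficient hearts 1 of 39 members was called against wild type (2.56%), Gng2, where 2.28% of all 13941 tested genes were called. Called means an adjusted p under 0.05 over all genes tested, and rose and fell are used for such genes only. The members' median log2 fold change was 0.06, against 0.01 for all genes. In 21 of 39 members the 95% interval lay within 1.5-fold in either direction, as it did in 62% of all genes. At an unadjusted p under 0.05 there were 5 of 39 members, where 17.3% of all genes passed. A share of members called near that of all genes says nothing particular of the members.

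Gng2 encodes a gamma subunit found in many tissues, and its row covers chr14:19872559-19977249 on the minus strand (mm10). Its wild-type libraries held 27.2, 32.9, 39.6, 36.3, 33.4, 34.9, 34.8 and 32.5 CPM. The haploinsufficient libraries held 37.8, 58.2, 46.8, 53.2, 37.7, 41.5, 48.3 and 39.7 CPM, and the triple-knockout libraries 41.1, 39.2, 43.6, 32.6, 38.5, 39.8 and 46 CPM. The haploinsufficient values were all above the wild-type mean of 34.0 CPM, and the groups met only where wild-type replicate 3 lay above haploinsufficient replicates 1 and 5. Gng2 rose 1.32-fold in the haploinsufficient group, by 0.40 ± 0.10 (SE) on the log2 scale (edgeR adjusted p = 0.0246). In the triple knockouts the difference from wild type was 0.24 ± 0.10 (edgeR adjusted p = 0.312). The GRK groups themselves differed by -0.16, with a 95% interval from -0.36 to 0.04 (edgeR adjusted p = 0.448), so a difference between their responses was not shown.

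The Gng2 call held in 28 of 37 alternative analyses, with log2 values from 0.31 to 0.51 and adjusted p from 0.00512 to 0.411. Of the 37, 23 left out 1 library, and 7 of these left out a triple-knockout library, which is in neither group compared. It was lost without haploinsufficient replicates 2 and 4, the highest for Gng2 (log2 0.31, adjusted p = 0.0836), without the 7 libraries of high neighbouring tissue score (0.44, 0.0808) and with that score as a term (0.38, 0.0791). Within the library ID sets the log2 values were 0.51 for IDs 1 to 12 (adjusted p = 0.411) and 0.31 for IDs 19 to 30 (adjusted p = 0.204). Leaving out wild-type replicate 1, 2 or 8 or haploinsufficient replicate 7 raised the adjusted p to 0.0659, 0.0531, 0.0543 and 0.0624. With the offsets corrected for exon length the value was 0.42 (adjusted p = 0.0188).

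Gng10, a short gamma-subunit gene of 1120 exonic bases, ran from 6.79 to 12.8 CPM (median 9.44) in wild type, from 8.47 to 22.1 CPM (median 15.4) in the haploinsufficient group and from 7.73 to 14.6 CPM (median 12.4) in the triple knockouts. In the haploinsufficient group 6 of 8 libraries lay above every wild-type library. The difference was 0.62 ± 0.17 (SE) on the log2 scale, or 1.54-fold, and missed the threshold (edgeR adjusted p = 0.0542). DESeq2 called it (adjusted p = 0.0217), and with offsets corrected for exon length the log2 value was 0.55 (adjusted p = 0.0774). Left without haploinsufficient replicate 3 or 5, or triple-knockout replicate 7, it passed (adjusted p = 0.0089, 0.0402 and 0.0468). Over its 37 alternatives the log2 value ran from 0.43 to 0.73 and the adjusted p up to 0.594. Haploinsufficient libraries above a neighbouring tissue score of 1.5 held 14.7 to 17.4 CPM of Gng10 (n = 3), and those not above it 8.47 to 22.1 CPM (n = 5). In the triple knockouts the ranges were 12.2 to 14.6 CPM (n = 3) and 7.73 to 14.1 CPM (n = 4).

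Rgs3 was the member with the next smallest p. Its wild-type libraries spanned 133 to 158 CPM (median 153), the haploinsufficient libraries 98.3 to 137 CPM (median 127) and the triple-knockout libraries 110.1 to 145 CPM (median 127). The groups overlapped through wild-type replicates 4 and 5, at 134 and 133 CPM. The log2 difference was -0.27 ± 0.08 (SE) in the haploinsufficient group (edgeR adjusted p = 0.0595) and -0.21 ± 0.08 in the triple knockouts (edgeR adjusted p = 0.261), both against the same wild-type libraries. In the haploinsufficient comparison it was called by DESeq2 (adjusted p = 0.0122), by limma on log2(FPKM + 1) (0.0387), without wild-type replicate 4 (0.0398) and without haploinsufficient replicate 3 (0.0408). Corrected for exon length, the value was -0.16 (adjusted p = 0.313), and the Rgs3 model is long, with 7301 exonic bases. Over the 37 alternatives the log2 value ran from -0.36 to -0.16 and the adjusted p up to 0.703.

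Gnao1, the alpha subunit abundant in nerve cells, held 23 to 41.7 CPM (median 31.2) in wild type, 9.2 to 32.1 CPM (median 19.1) in the haploinsufficient group and 17.7 to 34.7 CPM (median 29.9) in the triple knockouts. Haploinsufficient replicates 3, 6 and 8, at 32.1, 31.1 and 24.2 CPM, lay among the wild-type values, and the other 5 lay below them all. The difference from wild type was -0.57 ± 0.18 (SE) on the log2 scale (edgeR adjusted p = 0.104) and passed without replicate 3 (-0.70, adjusted p = 0.0294) or replicate 6 (-0.67, adjusted p = 0.0493); over the 37 alternatives it ran from -0.70 to -0.42, with adjusted p up to 0.524. The triple knockouts differed from wild type by -0.15 (edgeR adjusted p = 0.84) and from the haploinsufficient group by 0.41 ± 0.19 (edgeR adjusted p = 0.287). Of the tested neuron and glia markers 6 of 8 had a positive log2 value in the haploinsufficient comparison, with a median of 0.29, and their summed level had a median of 46.9 CPM against 40.1 CPM in wild type.

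Rgs2, an RGS protein that acts mainly on the Gq class, held 4.31 to 9.26 CPM (median 7.29) in wild type, 3.59 to 20.4 CPM (median 9.47) in the haploinsufficient group and 6.68 to 13.7 CPM (median 11.8) in the triple knockouts. In the triple knockouts 6 of 7 libraries lay above every wild-type library. The log2 differences from wild type were 0.51 ± 0.23 (SE) in the haploinsufficient group (edgeR adjusted p = 0.236) and 0.60 ± 0.23 in the triple knockouts (edgeR adjusted p = 0.262).

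**Figure D3:**
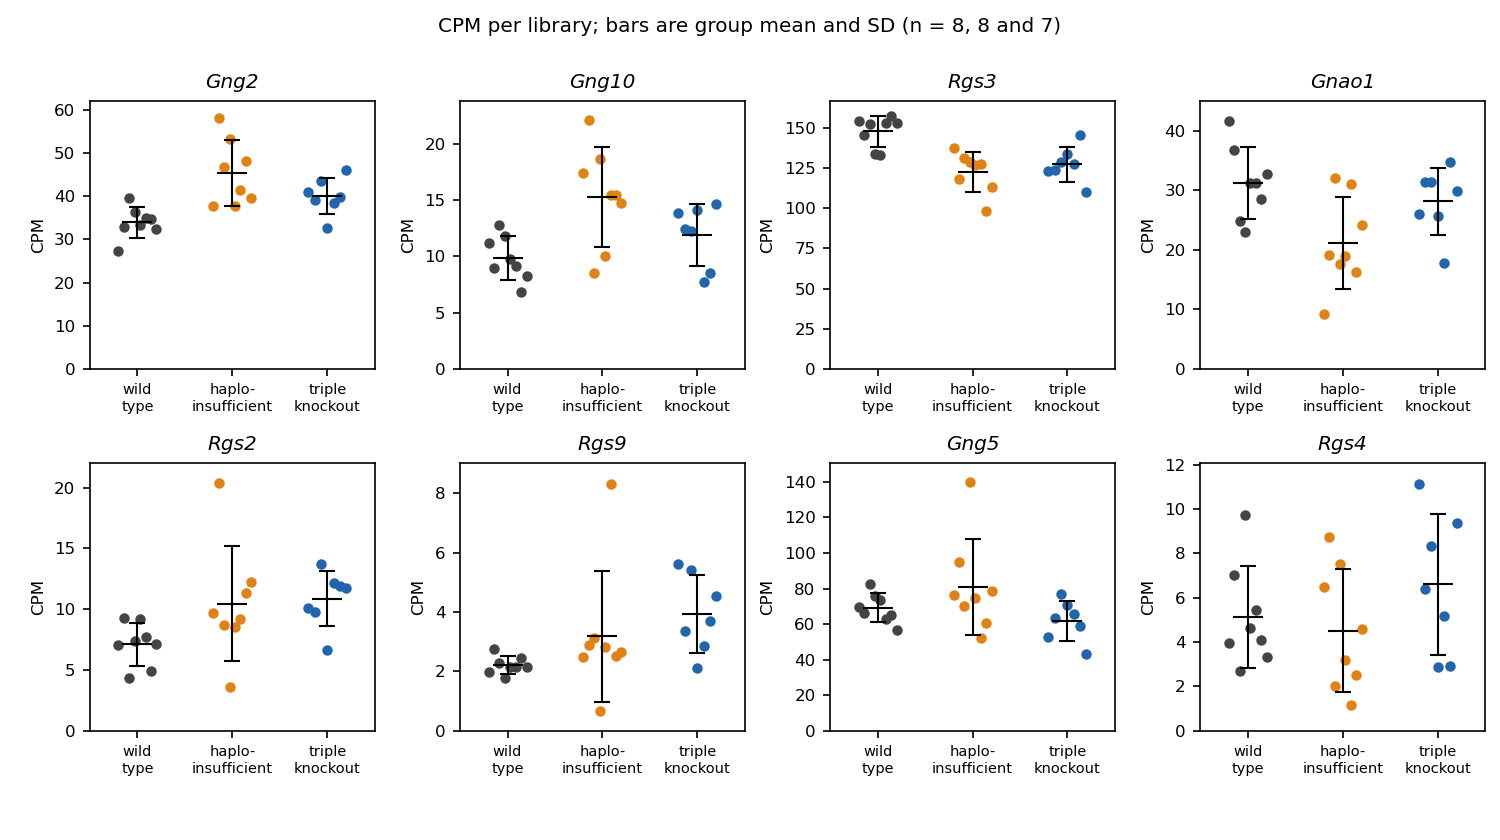
CPM of 8 members in each library by genotype group, with the group mean and SD in black (n = 8, 8 and 7). Gng2 is the only called member, in the haploinsufficient group. All 8 genes, Gng2 among them, overlap between groups, and haploinsufficient replicates 2, 4 and 6 give the single high points of Rgs2, Gng5 and Rgs9.

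In the triple knockouts 0 of 39 members were called against wild type by edgeR, where 1.18% of all tested genes were called. DESeq2 and limma on log2(FPKM + 1) called 0 as well. At an unadjusted p under 0.05 there were 4 members (Rgs3, Rgs2, Rgs9 and Gng2), where 10.9% of all genes passed. The members' median log2 fold change was 0.03, against 0.01 for all genes, and 25 of 39 had a 95% interval within 1.5-fold, as did 66.4% of all genes.

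The best measured alpha subunits had narrow intervals there. Gnas held 876 to 1096 CPM (median 948) in wild type, 769.7 to 1124 CPM (median 947) in the haploinsufficient group and 955 to 1326 CPM (median 1031) in the triple knockouts, and its log2 difference from wild type had a 95% interval from -0.06 to 0.33 in the triple knockouts (edgeR adjusted p = 0.677). Gnai2 held 283 to 442, 305 to 393 and 274 to 379 CPM (medians 367, 359 and 337), with an interval from -0.31 to 0.06 (edgeR adjusted p = 0.691). Gna11 held 104 to 138, 116 to 137 and 102 to 129 CPM (medians 119, 123.5 and 119), with an interval from -0.19 to 0.11 (edgeR adjusted p = 0.907). Gna12 held 59.4 to 88.3, 49.4 to 89.3 and 64.6 to 89.0 CPM (medians 79.8, 73.4 and 82.0), with an interval from -0.17 to 0.26 (edgeR adjusted p = 0.936). The groups overlapped throughout for these 4 genes. Gnaq stood at 44.7 ± 4.57 CPM (SD, n = 8) in wild type and 52.2 ± 8.47 CPM (n = 7) in the triple knockouts, a log2 difference of 0.22 with an interval from -0.002 to 0.45 (edgeR adjusted p = 0.469).

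The leading beta subunit, Gnb2, held 182 to 291 CPM (median 222.5) in wild type, 205 to 256 CPM (median 233) in the haploinsufficient group and 166 to 253 CPM (median 217) in the triple knockouts. Its log2 interval in the triple knockouts ran from -0.33 to 0.08 (edgeR adjusted p = 0.731). All 5 beta subunits had 95% intervals that included 0 in every comparison.

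Rgs9, an R7 protein best known from photoreceptors and the striatum, had the largest positive log2 value among the triple-knockout members under an unadjusted p of 0.05. It held 1.79 to 2.74 CPM (median 2.16) in wild type, 0.653 to 8.31 CPM (median 2.75) in the haploinsufficient group and 2.12 to 5.63 CPM (median 3.69) in the triple knockouts. In the triple knockouts 6 of 7 libraries lay above every wild-type library. The difference was 0.83 ± 0.31 (SE), or 1.78-fold (edgeR adjusted p = 0.263), and over the 37 alternatives it ran from 0.39 to 1.09. Within the triple knockouts the 3 libraries above a neighbouring tissue score of 1.5 held 4.54 to 5.63 CPM of Rgs9 and the other 4 held 2.12 to 3.69 CPM. In wild type and the haploinsufficient group the libraries above that score, 1 and 3 in number, did not exceed 2.67 CPM. The 8 neuron and glia markers were all positive in this comparison, with a median of 1.035; the part of either measure in the Rgs9 value was not tested. These values rest on few reads, 134 in the 8 wild-type and 265 in the 7 triple-knockout libraries. The highest R7 gene, Rgs6, held 21.8 to 37.0 CPM (median 28.6), 17.5 to 40.6 CPM (median 26.1) and 20.8 to 31.2 CPM (median 28.4) in the 3 groups, and the triple-knockout interval ran from -0.33 to 0.28 on the log2 scale (edgeR adjusted p = 0.982).

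Rgs12 and Rgs19, the leading genes of their classes (R12 and RZ), were as close between groups. Rgs12 held 142 to 175, 119.8 to 158 and 129.8 to 164 CPM (medians 144.5, 145 and 155), and the triple-knockout interval ran from -0.17 to 0.17 (edgeR adjusted p = 0.993). Rgs19 held 12.1 to 24.3, 15.7 to 24.5 and 15 to 22.8 CPM (medians 17.8, 17.6 and 18.9), with an interval from -0.23 to 0.32 (edgeR adjusted p = 0.948). The plot of log2 differences sets these intervals beside those of the low genes Gng7, Gng8, Gna14 and Rgs17, which were several times wider.

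**Figure D4:**
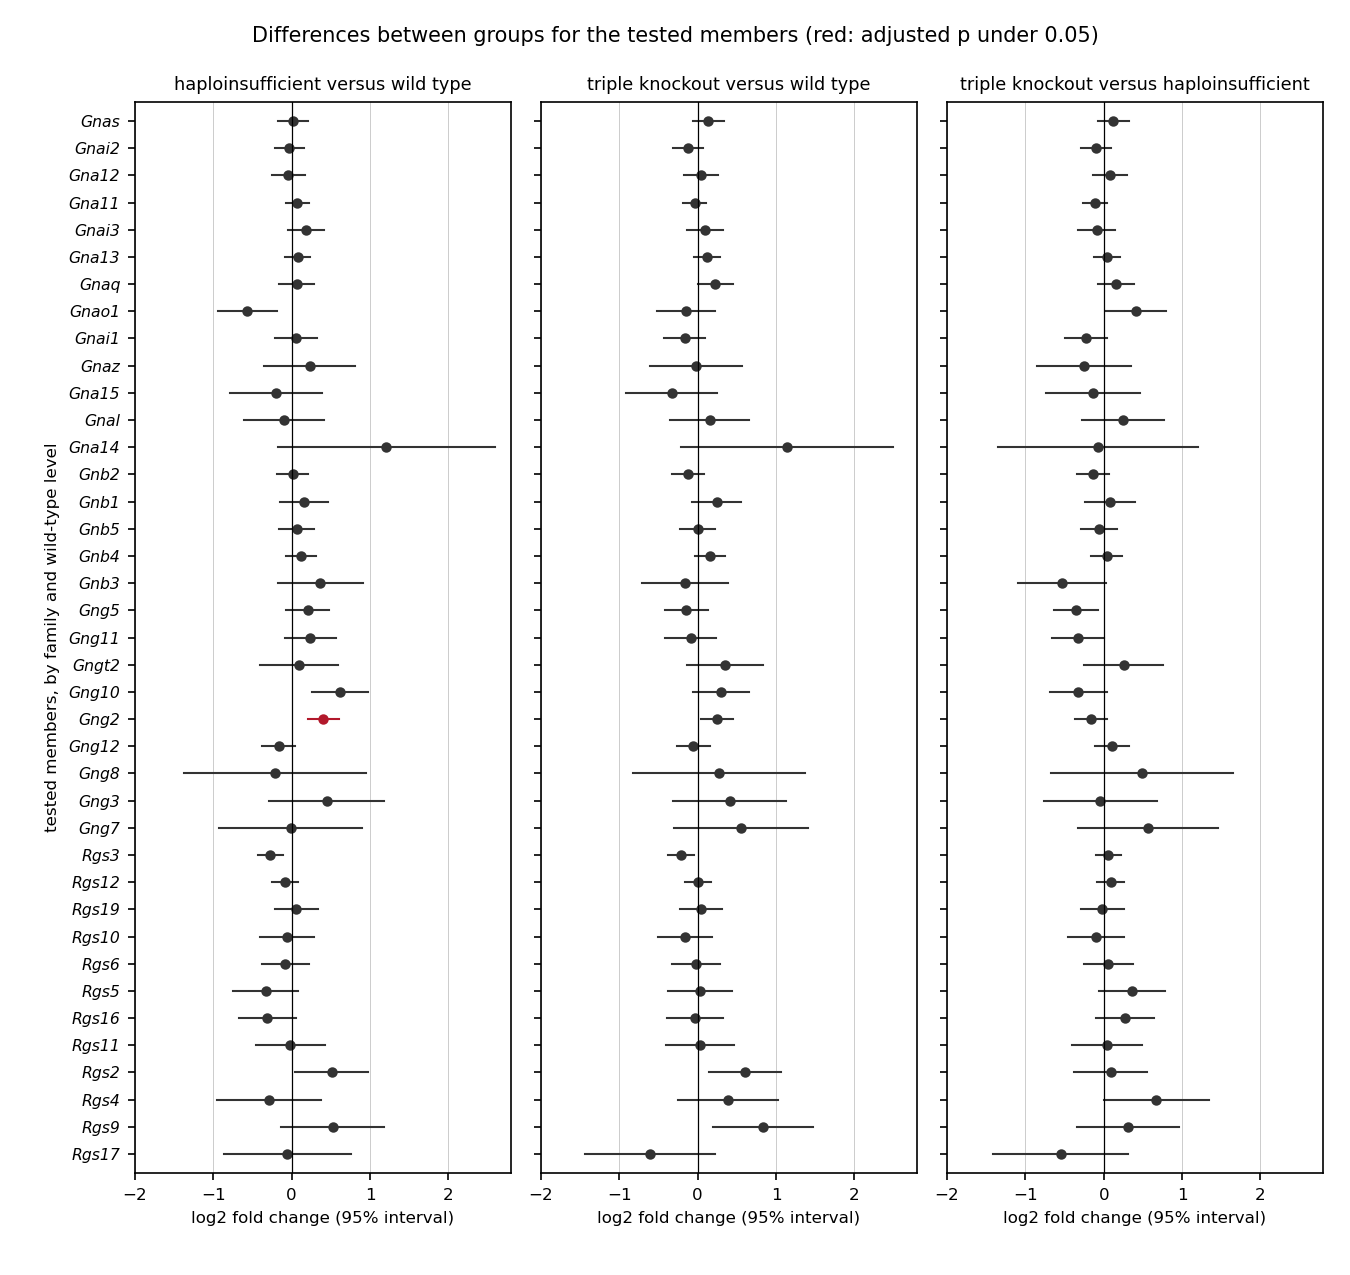
Log2 fold change of the 39 tested members with its 95% interval, in the haploinsufficient and triple-knockout groups against wild type and in the triple knockouts against the haploinsufficient group. Gng2 in the haploinsufficient group is the only point in red (adjusted p under 0.05), and Gna14 has the widest interval against wild type, from -0.17 to 2.60.

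Between the GRK groups 0 of 39 members were called by edgeR, where 0.395% of all tested genes were called; DESeq2 and limma called 0 too. At an unadjusted p under 0.05 there were 3 members (Gng5, Gnao1 and Rgs4), where 15.4% of all genes passed. This comparison separates the groups that differ by label in a single Grk2 allele.

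Gng5, with 535 exonic bases, held 56.7 to 82.7 CPM (median 67.7) in wild type, 52.4 to 140.1 CPM (median 75.6) in the haploinsufficient group and 43.4 to 76.7 CPM (median 63.7) in the triple knockouts. The triple knockouts differed from the haploinsufficient group by -0.35 ± 0.14 (SE) on the log2 scale (edgeR adjusted p = 0.231), and by -0.02 once offsets were corrected for exon length (adjusted p = 0.969). Gng11, with 837 exonic bases, held 15 to 25.4, 15.4 to 39.5 and 14.9 to 22 CPM (medians 18.3, 21 and 17). It differed by -0.33 ± 0.16 (edgeR adjusted p = 0.332), and by -0.10 after that correction (adjusted p = 0.836). For both genes the highest value was that of haploinsufficient replicate 4, the library with the largest short-gene shift. Over all alternatives the adjusted p ran from 0.115 to 0.969 for Gng5 and from 0.173 to 0.988 for Gng11.

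Rgs4, an R4 protein of nerve cells and pericytes, held 2.69 to 9.73 CPM (median 4.39) in wild type, 1.15 to 8.73 CPM (median 3.87) in the haploinsufficient group and 2.88 to 11.1 CPM (median 6.38) in the triple knockouts. The GRK groups differed by 0.67 ± 0.33 (SE) on the log2 scale (edgeR adjusted p = 0.321), with broad overlap. Within the triple knockouts the 3 libraries above a neighbouring tissue score of 1.5 held 8.33 to 11.1 CPM of Rgs4 and the other 4 held 2.88 to 6.38 CPM; in the haploinsufficient group the ranges were 2.52 to 6.47 CPM and 1.15 to 8.73 CPM. Of the markers, all 8 of neurons and glia had a positive log2 value between the GRK groups, with a median of 0.57, and 6 of 10 of pericytes and smooth muscle, with a median of 0.12. EdgeR called none of them in this comparison, with 2 and 1 at an unadjusted p under 0.05, and their part in the Rgs4 value was not tested. Rgs5, the R4 gene most typical of pericytes, stood at 7.31 ± 1.59 FPKM (SD, n = 8) in wild type, 5.75 ± 1.72 (n = 8) in the haploinsufficient group and 7.79 ± 3.02 FPKM (n = 7) in the triple knockouts, and the differences did not pass the test.

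Gna14 had the largest log2 values of all members against wild type, 1.21 ± 0.68 (SE) in the haploinsufficient group (edgeR adjusted p = 0.363) and 1.14 ± 0.66 in the triple knockouts (edgeR adjusted p = 0.582), and was singled out after its values were seen. Its level moved with the neighbouring tissue score. The 7 libraries above a score of 1.5 held 3.07 to 6.04 CPM and the other 16 held 0 to 2.4 CPM, with no overlap. Above that score lay 1 wild-type, 3 haploinsufficient and 3 triple-knockout libraries. Among the libraries at or under it, the medians were 0.617 CPM in wild type (n = 7), 0.669 CPM in the haploinsufficient group (n = 5) and 1.1 CPM in the triple knockouts (n = 4). Their ranges overlapped. In the same libraries the level of 3 counts was 0.221 to 0.659 CPM in wild type, 0.501 to 1.75 CPM in the haploinsufficient group and 0.239 to 0.455 CPM in the triple knockouts. Over all libraries Gng2 showed no such separation, with 36.3 to 48.3 CPM above the score and 27.2 to 58.2 CPM in the others. Within the triple knockouts the 3 libraries above it held 41.1 to 46 CPM of Gng2 and the other 4 held 32.6 to 39.8 CPM. In the haploinsufficient group the ranges overlapped, at 37.8 to 48.3 CPM (n = 3) and 37.7 to 58.2 CPM (n = 5). The 1 wild-type library above the score, at 36.3 CPM, lay among the others (27.2 to 39.6 CPM).

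**Figure D5:**
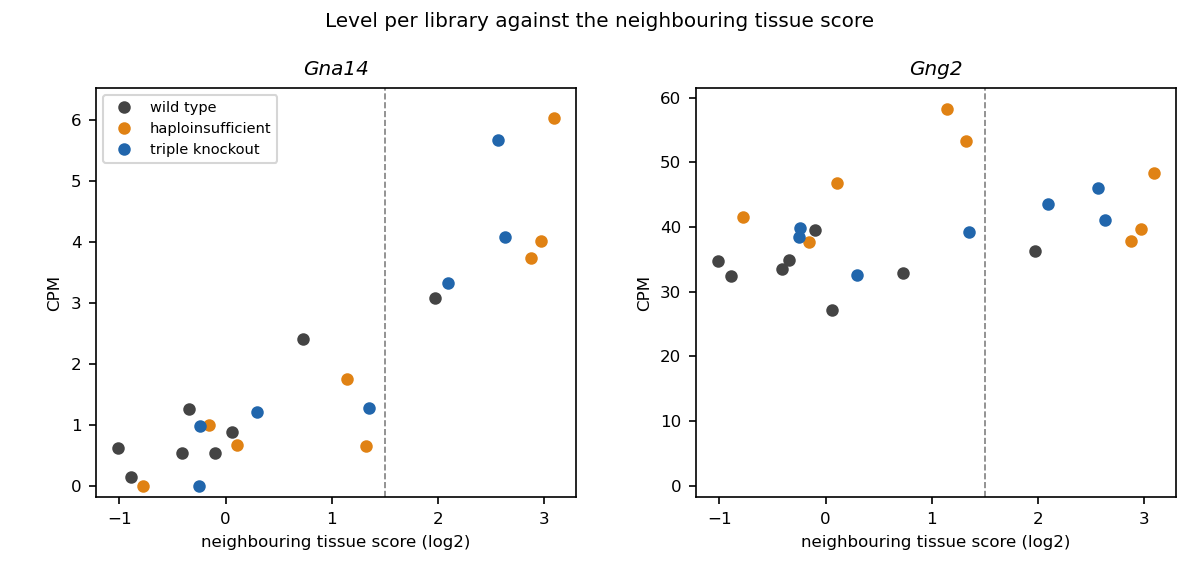
CPM of Gna14 and Gng2 in each of the 23 libraries against the neighbouring tissue score, the mean log2 difference of lung, foregut, liver and thymus markers from the wild-type mean; the dashed line is at 1.5. Gna14 lies at 3.07 to 6.04 CPM to the right of the line and at 0 to 2.4 CPM to its left. Gng2 overlaps over all libraries, though not within the triple knockouts.

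Some members lie within 10 Mb of an engineered locus. Rgs14 lies 0.0606 Mb from Grk6 on chromosome 13, Rgs11 0.627 Mb and Gng13 1.12 Mb from Nkx2-5 on chromosome 17, and Gng3 4.53 Mb from Adrbk1 on chromosome 19. Rgs14 and Gng13 were not tested. The R7 gene Rgs11 differed from wild type by -0.02 ± 0.21 (SE) in the haploinsufficient group (edgeR adjusted p = 0.981) and by 0.03 ± 0.21 in the triple knockouts (edgeR adjusted p = 0.982). Gng3, which shares 23.4% of its exonic bases with Bscl2 on the other strand, differed by 0.45 ± 0.36 (edgeR adjusted p = 0.546) and 0.41 ± 0.35 (edgeR adjusted p = 0.759).

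The genes around the members in the pathway gave no call by edgeR in any comparison. Of all tested genes 2.28%, 1.18% and 0.395% were called in the haploinsufficient, triple-knockout and GRK-group comparisons. At such shares 0 calls in short lists say nothing particular of these genes. Of 23 tested effectors (adenylyl cyclases, phospholipase C-beta, G protein-gated potassium channels and others) 0 of 23 were called by edgeR in any comparison, with 3, 3 and 5 at an unadjusted p under 0.05 in the haploinsufficient, triple-knockout and GRK-group comparisons. The smallest p-values belonged to Adcy5, a cardiac adenylyl cyclase, at -0.33 ± 0.11 (SE) in the haploinsufficient group (edgeR adjusted p = 0.106), to Kcnj5, a subunit of the G protein-gated potassium channel, at 0.31 ± 0.12 in the triple knockouts (edgeR adjusted p = 0.276), and to Prex1, a Rac exchange factor opened by beta-gamma, at 0.42 ± 0.14 between the GRK groups (edgeR adjusted p = 0.153). The effectors' median log2 fold changes were -0.06, 0.10 and 0.11 in these comparisons, and 9, 17 and 20 of 23 had a positive value. Of all genes 17.3%, 10.9% and 15.4% had an unadjusted edgeR p under 0.05. By limma on log2(FPKM + 1), 3, 3 and 8 of the 23 effectors passed that level.

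Among 8 tested chaperones and modulators 0 were called, with 0, 1 and 1 at an unadjusted p under 0.05; the smallest p-values were those of Gpsm1 (0.15, edgeR adjusted p = 0.418), Gpsm2 (0.40 ± 0.14, edgeR adjusted p = 0.212) and Gprasp1 (0.24 ± 0.10, edgeR adjusted p = 0.232), in the same order of comparisons. Their median log2 values lay between -0.03 and 0.03. Of 6 proteins with a related RGS domain 0 were called and 0 reached an unadjusted p under 0.05; the smallest p-values were those of Axin2 (0.28, edgeR adjusted p = 0.499), Snx13 (0.18, edgeR adjusted p = 0.723) and Akap10 (0.16, edgeR adjusted p = 0.533), and the median log2 values were 0.03, 0.08 and 0.11. Of the further G protein and RGS genes, such as the transducins, only 3 of 9 in the table were expressed enough to test, and 0 were called. Rgs8 had the smallest p there, at -1.46 ± 0.51 (SE) in the haploinsufficient group (edgeR adjusted p = 0.128) and 1.35 ± 0.52 between the GRK groups (edgeR adjusted p = 0.217), and Rgs9bp in the triple knockouts, at -0.32 ± 0.24 (edgeR adjusted p = 0.698). DESeq2 and limma on log2(FPKM + 1) likewise called 0 genes of these 4 lists in the 3 comparisons.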

How the data were processed

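Per the labels' protocols, heart RNA was isolated with Trizol, ribosomal RNA was removed, and single-end libraries that do not keep the strand were sequenced, so reads of overlapping genes cannot be told apart. The authors' deposited table holds integer read counts per gene. The submitters' processing notes name TopHat2 (version 2.0.10), Bowtie2 and HTSeq, the build mm10, and Cufflinks (version 2.1), from which the authors' deposited FPKM values came. Exon lengths, in bases, were taken from the deposited annotation.

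The count test was edgeR's quasi-likelihood test (version 4.0.16 in R 4.3.3) on all 23 libraries, with TMM scaling, the library ID range (1 to 12 or 19 to 30) as a covariate and edgeR's expression filter (count of 10, total of 15). Two-sided p-values were adjusted after Benjamini and Hochberg over 13941 genes, without 59 features of the targeted genes and Cre, at a threshold of 0.05. Both GRK groups share the wild-type libraries. CPM uses TMM-scaled library sizes. No libraries of a group were duplicates within sampling noise (lowest chi-square per degree of freedom 5.19). The fit was tested on simulated data. Members and gene lists were chosen with earlier results of these data known.

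Full values are given for called members, the 4 others with the smallest p in each comparison and the highest member of each class; in the other pathway lists, for called genes or else the smallest p. Alternatives were DESeq2 (version 1.42.0), limma (version 3.58.1) on log2 FPKM with a pseudocount of 1 or 0.1, RLE scaling, all genes unfiltered, the covariate dropped or replaced by a replicate block, each ID range alone, only the groups compared, the neighbouring tissue score, and each library left out. Offsets corrected for exon length, and leaving out haploinsufficient replicates 2 and 4, were chosen after seeing the data.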

Additional observations from a re-analysis of the deposited data

Results flagged for a closer look

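In 4 of 51 sets, each a named member in a genotype group, 1 library stood far from the others; chance gives about 1 in 20 sets. Triple-knockout replicate 1 had 1326 CPM of Gnas, against 955.4 to 1101 CPM in the other triple knockouts. Haploinsufficient replicate 4 had 39.5 CPM of Gng11, against 15.4 to 25.6 CPM in the others of its group. Haploinsufficient replicate 6 had 8.31 CPM of Rgs9, against 0.653 to 3.12 CPM. Wild-type replicate 3 had 174.7 CPM of Rgs12, against 142 to 151.7 CPM. The cause was not tested in any of the 4.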

How the results depend on the processing

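In the triple knockouts against wild type and between the GRK groups, 0 members were called under every alternative run. Against wild type the haploinsufficient group had 1 called member (Gng2), 3 with DESeq2 (Gng10, Gng2 and Rgs3), 2 with limma at either pseudocount (Gng2 and Rgs3), 0 with either library ID set alone, 0 without the libraries of high neighbouring tissue score, 0 with that score as a term and 0 without haploinsufficient replicates 2 and 4. With 1 library left out the number ran from 0 to 4. It was 0 without wild-type replicate 1, 2 or 8 or haploinsufficient replicate 7, 2 without wild-type replicate 4, haploinsufficient replicate 5 or 6 or triple-knockout replicate 7, and 4 without haploinsufficient replicate 3.

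Over all genes, the triple knockouts against wild type had 164 called genes, and 281 with DESeq2, 295 with only the groups compared, 50 and 52 with IDs 1 to 12 and 19 to 30, 70 without the high-score libraries and 107 to 185 with 1 library left out (107 without triple-knockout replicate 3). The haploinsufficient group against wild type had 318, and 532 with DESeq2, 20 and 183 in the ID sets, 111 without the high-score libraries, 170 with the score as a term and 152 to 614 with 1 library left out. It was 614 without haploinsufficient replicate 3, 163, 195, 192, 200 and 152 without wild-type replicates 1, 2, 6, 7 and 8, and 185, 187 and 181 without haploinsufficient replicates 1, 7 and 8. Between the GRK groups there were 55, and 287 with DESeq2, 88 with no filter, 1 with only the groups compared, 168 and 1 in the ID sets, 0 with limma at either pseudocount, 0 without the high-score libraries, 174 with the score as a term, 0 with offsets corrected for exon length, 0 without haploinsufficient replicates 2 and 4, and 10 to 414 with 1 library left out. It was 13, 23, 414, 30, 16 and 22 without haploinsufficient replicates 1, 2, 3, 4, 7 and 8, and 16, 11, 10, 97, 26 and 27 without triple-knockout replicates 1, 2, 3, 5, 6 and 7. The cause was not tested, apart from fewer samples in those fits that leave libraries out.

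Over 22 same-numbered pairs the correlation of deviations ran from -0.23 to 0.46 (median -0.04), and 4 pairs were over 0.1. These 4 were all pairs of the GRK groups, at 0.17, 0.24, 0.21 and 0.46 for replicates 1, 5, 6 and 7. Pairs with wild type reached at most 0.074. Replicate numbers thus showed no pairing with wild type, whereas pairing between the GRK groups was not settled. The main test used no pairing. With a replicate block in place of the ID set term, the calls were 145, 217 and 16 genes in the triple-knockout, haploinsufficient and GRK-group comparisons, and Gng2 was still the called member (log2 0.40, adjusted p = 0.042). Replicate 4 of the triple knockouts is in the other ID set than replicate 4 of the remaining groups, so the block does not fully replace that term.

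Of 51 log2 values of named members, 26 turned their sign under an alternative, none of them called where they did so; 10 were in the triple knockouts against wild type, 8 in the haploinsufficient group and 8 between the GRK groups, and their reported values were at most 0.38 in size. In the triple knockouts against wild type, with IDs 1 to 12 only, Gna11 was 0.046 and Rgs12 -0.036. With IDs 19 to 30 only, Gnas was -0.002, Gna12 -0.099, Gng11 0.035, Rgs6 0.029 and Rgs19 -0.19. With limma at a pseudocount of 1, Rgs6 was 0.004. With limma at a pseudocount of 0.1, Rgs6 was 0.005. Without the high-score libraries, Gng11 was 0.000, Rgs6 0.076 and Rgs19 -0.042. With the score as a term, Gnao1 was 0.001, Gng11 0.052, Rgs4 -0.084, Rgs6 0.14 and Rgs19 -0.022. With the length offsets, Gng5 was 0.014, Gng11 0.015 and Rgs12 -0.042. With 1 library left out, Gna12 ran from -0.001 to 0.087, Rgs6 from -0.065 to 0.056, Rgs12 from -0.026 to 0.040 and Rgs19 from -0.030 to 0.11. In the haploinsufficient group against wild type, with IDs 1 to 12 only, Gnai2 was 0.044, Rgs4 0.036 and Rgs6 0.12. With IDs 19 to 30 only, Gnas was -0.048, Rgs12 0.020 and Rgs19 -0.12. With limma at a pseudocount of 1, Gnas was -0.036 and Gnb2 -0.001. With limma at a pseudocount of 0.1, Gnas was -0.036 and Gnb2 -0.001. Without the high-score libraries, Gnai2 was 0.012, Gnas -0.017 and Rgs6 0.12. With the score as a term, Gnas was -0.013, Rgs6 0.073 and Rgs19 -0.010. With the length offsets, Gnb2 was -0.030. Without haploinsufficient replicates 2 and 4, Gna12 was 0.026 and Gnb2 -0.003. With 1 library left out, Gnai2 ran from -0.070 to 0.012, Gnas from -0.018 to 0.056, Gna12 from -0.081 to 0.009, Gnb2 from -0.020 to 0.092, Rgs6 from -0.19 to 0.003 and Rgs19 from -0.012 to 0.13. Between the GRK groups, with IDs 1 to 12 only, Rgs3 was -0.044, Rgs6 -0.22 and Rgs19 0.055. With IDs 19 to 30 only, Gna12 was -0.047 and Rgs9 -0.26. With limma at a pseudocount of 1, Rgs19 was 0.054. With limma at a pseudocount of 0.1, Rgs19 was 0.057. Without the high-score libraries, Rgs6 was -0.043 and Rgs9 -0.30. With the length offsets, Gnas was -0.009, Rgs3 -0.10, Rgs12 -0.023 and Rgs19 0.094. Without haploinsufficient replicates 2 and 4, Rgs19 was 0.025. With 1 library left out, Rgs2 ran from -0.033 to 0.26, Rgs6 from -0.025 to 0.17 and Rgs19 from -0.080 to 0.045. Depth limits the low members most: Rgs9, Gna14 and Gng8 rest on few reads, and their intervals allow large differences.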
